A study of Mus musculus with 4 samples.

Results

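Amino acids cross cell membranes through solute carriers, and the 58 genes described here are the measured members of 7 families of these carriers: SLC1, SLC3, SLC6, SLC7, SLC36, SLC38 and SLC43. They were defined by gene symbol, from 22180 genes with a single symbol on the array. Where a gene had several rows, the rule took the brightest by mean log2 over the 4 arrays. Slc7a11, the cystine carrier, was left out by the rule. Slc6a9 was not analysed here, since its row carries the symbol of another gene as well. RNA came from fibroblasts of mice of 2 genotypes, labelled WT and Zip13KO (written Zip13-/- in the study's design text), with 2 biological replicates each and 1 Affymetrix Mouse Gene 2.0 ST array per replicate. Zip13 is the protein of Slc39a13, a zinc carrier of the ZIP family, and the study's stated interest is local zinc balance and the structure of the Golgi. The sources used here do not give the age of the mice, the site of origin of the cells or the design of the altered allele.

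Cells need these carriers in several roles. Some exchange 1 amino acid for another across the plasma membrane, and those of SLC7 often do so as pairs of a transporting light chain with a heavy chain of SLC3. Others load amino acids with sodium or protons, and a few sit in the lysosome, where they report amino acids to the mTORC1 kinase. SLC6 also holds carriers of neurotransmitters, creatine and taurine, so a symbol of these families is not proof of an amino acid substrate.

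Values are log2 of the deposited intensity. A difference is the mean of the Zip13KO arrays less that of the WT arrays, in log2 units, and a gene was called when its limma p-value, adjusted over all 22180 genes, was under 0.05. Array medians ran from 94.5 to 96.1 in intensity. Arrays correlated at r = 0.994 within each group over all rows and at 0.983 to 0.985 between groups. Slc39a13 itself was at 8.94 and 8.85 on the WT arrays and at 8.89 and 8.98 on the Zip13KO arrays. The groups overlapped (difference 0.04, limma adjusted p = 0.820), and since it is not known here whether its probes lie in the altered part, this value does not check the labels. Of 10 fibroblast markers, 9 lay above the median of all rows on every array and only Lum lay below it. Col1a1, Col1a2, Fn1, Pdgfrb and Vim fell and Pdgfra rose (limma), so markers of the cells moved with genotype too. The mean log2 value of the 10 was 9.72 on both WT arrays and 9.44 and 9.55 on the Zip13KO arrays. Of 6 epithelial, 6 endothelial and 5 skeletal muscle markers none was called in limma, with 1 in each list at an unadjusted p under 0.05, and of 5 adipocyte markers Lpl rose and Pparg fell. The part of these markers in the results below was not tested, and in such bulk RNA fewer cells of a type and less RNA per cell cannot be told apart. Nothing in the labels ties the replicates to separate mice or dishes, so the p-values measure a spread that may be technical.

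Of the 58 transporter genes, 4 rose and 7 fell on the Zip13KO arrays. Over all genes 17.1% were called, 7.00% higher and 10.1% lower. The 11 members called are 19.0% of the list, 6.90% higher and 12.1% lower, each near the share for all genes. Most members moved little: 52 of 58 differed by less than 0.3 log2 units and 34 by less than 0.1. The median difference was -0.02, beside -0.00340 over all genes, and the median size of a difference was 0.06, beside 0.09. The arrays of the groups did not overlap for 25 of the 58 members, or 43.1%, against 51.5% of all genes. With all 41345 rows in the fit and in the adjustment, Slc43a3, Slc1a3, Slc6a15, Slc7a2 and Slc38a1 were still called, and the other 6 had limma adjusted p-values from 0.0578 (Slc38a4) to 0.155 (Slc6a7). Where the text gives a value without 1 array, the group left with a single array is assumed to vary like the other, so these values show only how a call rests on the arrays. The members above the median of their array on at least 2 arrays numbered 37, and the 11 called were among them. They are 29.7% of the 37, beside 26.1% called among all genes at that level. Of all genes above the median on fewer arrays, 2.13% were called. A value above the median is no detection call. The members below the median on every array numbered 19, or 32.8%, beside 35.2% of all genes.

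**Figure D1:**
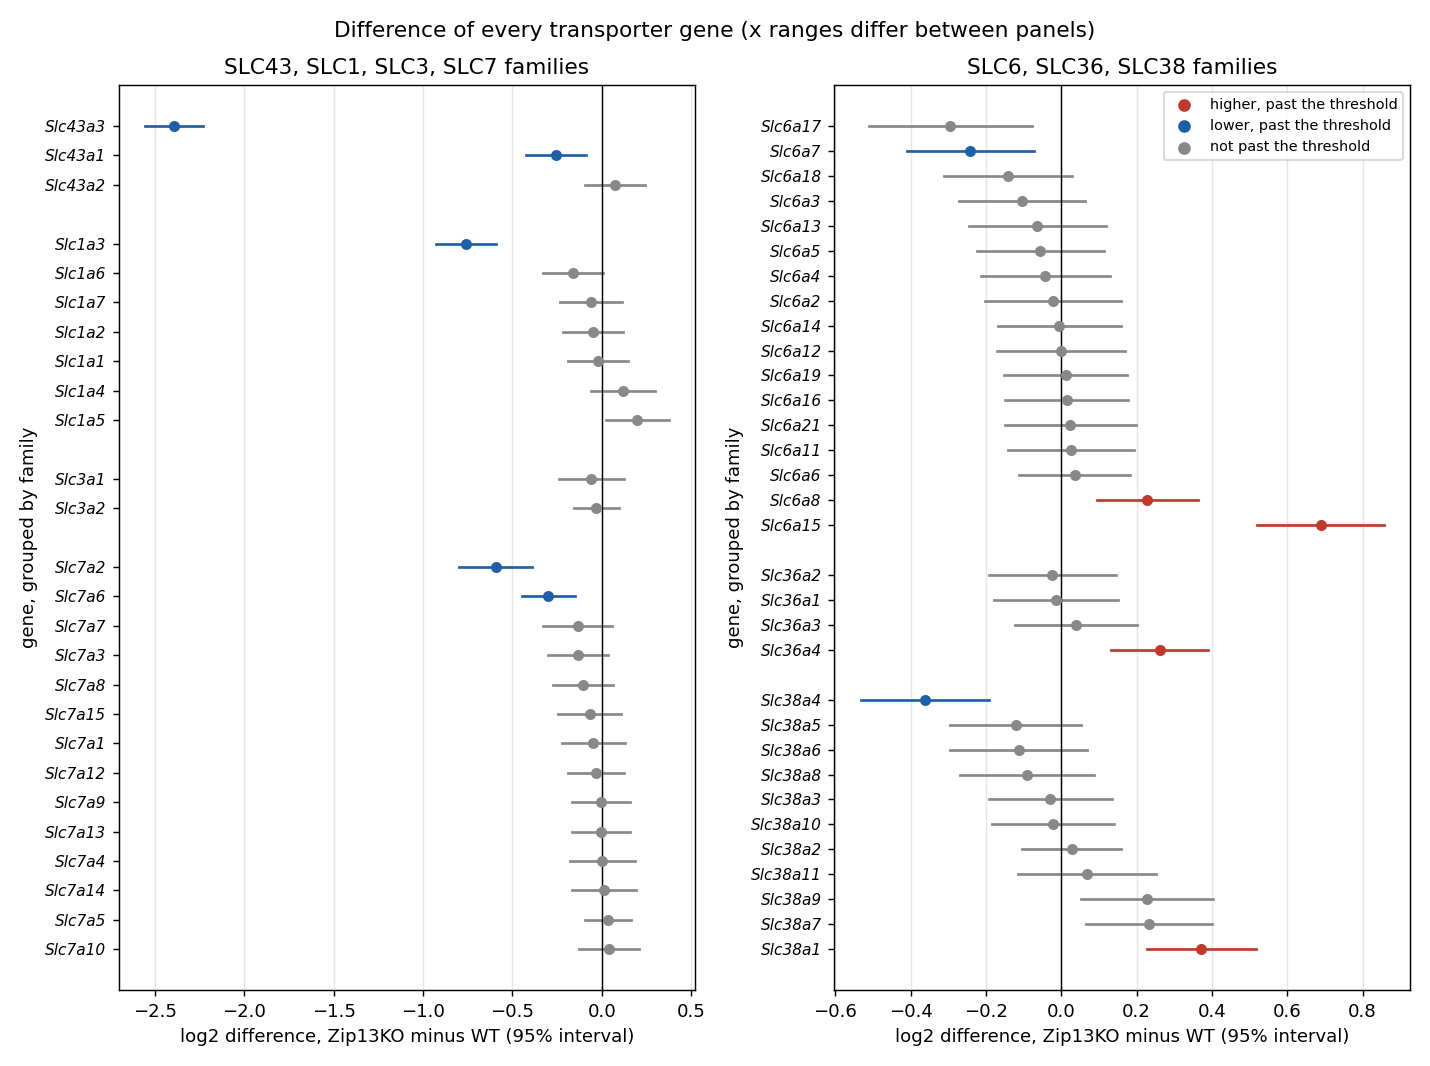
Log2 difference between Zip13KO and WT (x axis) for each of the 58 transporter genes (y axis, grouped by family), with the 95% interval of the moderated fit. Slc43a3 stands at -2.39, and the other 57 genes lie between -0.76 and 0.69.

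The largest change lay in SLC43, a family of 3 that is named for carriers of large neutral amino acids. Slc43a3 is its exception in function, since it is known as a carrier of purine nucleobases rather than of amino acids. It stood at 10.15 and 9.98 on the WT arrays and at 7.66 and 7.68 on the Zip13KO arrays. Both Zip13KO arrays lay far below both WT arrays. Slc43a3 fell by 2.39 log2 units (SE 0.08), which is 5.25-fold, with limma adjusted p = 1.78e-13, and of all genes tested it had the 17th lowest difference. Slc43a1 encodes LAT3, a carrier of branched-chain amino acids and phenylalanine. It stood at 7.34 and 7.28 in WT and at 7.04 and 7.07 in Zip13KO, again without overlap but with a small gap. Its fall of 0.26 (SE 0.08, limma adjusted p = 0.0311) was not called once any 1 array was left out. The adjusted p was 0.169 without WT replicate 1, 0.0641 without WT replicate 2, 0.115 without Zip13KO replicate 1 and 0.0593 without Zip13KO replicate 2. Slc43a2, which encodes the related LAT4, was at 6.69 in WT and 6.76 in Zip13KO and did not pass (limma adjusted p = 0.661).

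Slc43a3 and Slc43a1 are near neighbours on chromosome 2, with only Rtn4rl2 between them among the genes tested. Slc39a13 lies on the same chromosome, with 245 tested genes between it and Slc43a3. Of those 245 genes, 4 were higher and 2 lower, or 2.45%. Called were 16.0% of the 1880 tested genes on chromosome 2 and 17.1% of all genes. Among all genes above the array median on fewer than 2 arrays, 2.13% were called. The stretch holds olfactory receptor genes, of which Olfr987 stood at 7.44 in WT and Olfr994 at 5.09. Dim genes among the 245 were not counted, and their part in the low share was not tested. Of the 100 tested genes nearest to Slc39a13, 1 was higher and 8 were lower. Among the 20 tested genes nearest to Slc43a3, 10 on each side, none rose and 2 fell, and their median difference was 0.00100. Those that fell were Slc43a1 and Tnks1bp1, the latter by 0.29 (limma adjusted p = 0.0114, but 0.0631 without WT replicate 2, 0.0565 without Zip13KO replicate 1 and 0.0750 over all rows). Rtn4rl2 stood at -0.03 and Prg2, next on the other side, at 0.02. None of the 20 differed by more than 0.29. Tnks1bp1, Rtn4rl2 and Prg2 were named for their place or after their values were seen.

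**Figure D2:**
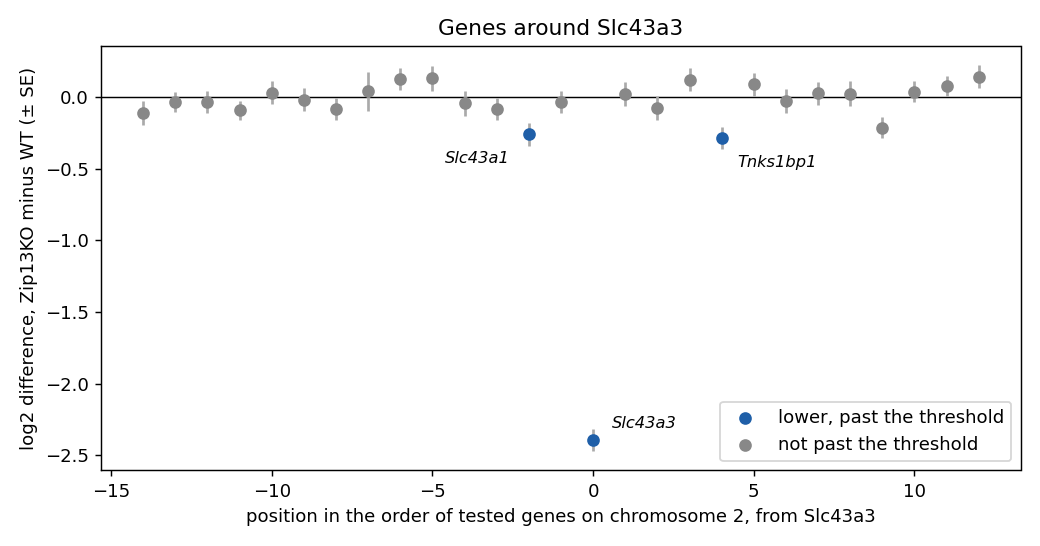
Log2 difference (y axis, ± SE) of the tested genes around Slc43a3, in their order on chromosome 2 (x axis, in genes). Slc43a3 lies at -2.39, and the other genes shown lie between -0.29 and 0.14.

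In SLC1, which carries glutamate and small neutral amino acids, 1 of 7 members fell and none rose. Called were thus 14.3%, beside 17.1% of all genes (7.00% higher and 10.1% lower). At unadjusted p under 0.05, Slc1a5 alone was higher. Slc1a3 encodes GLAST, the glutamate carrier best known from astrocytes. It stood at 7.95 and 7.85 in WT and at 7.14 and 7.15 in Zip13KO. The Zip13KO arrays were almost equal to each other and well below WT. The fall was 0.76 log2 units (SE 0.08), or 1.69-fold (limma adjusted p = 1.47e-06). Of 6 measured markers of neural and glial cells, Map2 fell by 0.59 and the other 5 were not called. Of the 6, 5 lay above the array median on all 4 arrays, S100b and Sox10 among them. Gfap, an astrocyte marker, lay above it on 1 array only. The mean log2 value of these markers was 7.66 and 7.55 on the WT arrays and 7.52 and 7.43 on the Zip13KO arrays, and their part in the fall of Slc1a3 was not tested. Slc1a5, the exchanger ASCT2 that brings in glutamine, was at 9.51 and 9.26 in WT and at 9.53 and 9.63 in Zip13KO. Its difference of 0.20 did not pass (limma adjusted p = 0.130), although it did after a further quantile normalization (0.0222), without WT replicate 1 (0.0167) and without Zip13KO replicate 1 (0.0462). Slc1a4, which encodes the related ASCT1, was at 8.48 in WT and 8.60 in Zip13KO and did not pass.

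SLC7 holds both light chains and carriers that work without a heavy chain. Of its 14 members 2 fell, or 14.3% called, and none rose in limma. None was higher at an unadjusted p under 0.05 either. Over all genes 17.1% were called and 7.00% were higher, so the lack of a rise among 14 does not set SLC7 apart. Slc7a2 encodes CAT2, a carrier of arginine, lysine and ornithine that works without a heavy chain. It stood at 7.07 and 6.86 in WT and at 6.25 and 6.49 in Zip13KO. The groups did not overlap, though the arrays within each were less alike than for the other called members. Slc7a2 fell by 0.59 (SE 0.10), or 1.51-fold (limma adjusted p = 1.96e-04), and only its WT values were above the array median. Arginine carriage by CAT2 is well known from activated macrophages. Of 8 macrophage markers, Cd68 rose, Cd14 and Csf1r fell and the others were not called. Adgre1, Ptprc, Itgam and Lyz2 lay below the array median on all 4 arrays. Cd68, Cd14 and Fcgr1 lay above it on all 4. The mean log2 value of the 8 was 6.63 and 6.57 in WT and 6.54 and 6.56 in Zip13KO, and their part was not tested. Slc7a1, which encodes the general arginine carrier CAT1, was at 9.14 in WT and 9.10 in Zip13KO, a difference of -0.05 (95% interval -0.22 to 0.13).

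The heavy chains of SLC3 did not pass. Slc3a2 encodes 4F2hc, which takes several SLC7 light chains to the cell surface. Its values were 11.33 and 11.30 in WT and 11.30 and 11.26 in Zip13KO, and the groups were nearly level. The difference was -0.03, with a 95% interval of -0.16 to 0.10 and a limma adjusted p of 0.841. Slc3a1, the heavy chain of the kidney cystine carrier, was at 6.58 and 6.52 (adjusted p = 0.769), and it overlaps Prepl, which fell. The 5 members that pair with Slc3a2 as light chains, apart from Slc7a11, are Slc7a5, Slc7a6, Slc7a7, Slc7a8 and Slc7a10. Of these 1 fell, or 20%, beside 10.1% of all genes. Slc7a7, which was not called, overlaps Oxa1l, which rose by 0.40 (limma adjusted p = 3.28e-04). Slc7a6 encodes y+LAT2, which exports arginine in exchange for glutamine and sodium. It stood at 10.08 and 9.94 in WT and at 9.72 and 9.71 in Zip13KO. Its fall of 0.30 (SE 0.07, limma adjusted p = 0.00578) did not pass without WT replicate 1 (0.114). Slc7a5, which encodes the leucine carrier LAT1, was at 11.60 and 11.49 in WT and at 11.54 and 11.62 in Zip13KO. The groups overlapped, and the interval of the difference ran from -0.10 to 0.17.

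SLC6 had 2 members that rose and 1 that fell among 17, and 11 of the 17 differed by less than 0.1. Called were 17.6% of the family, beside 17.1% of all genes. Slc6a15 encodes B0AT2, a sodium-driven carrier of branched-chain amino acids and proline that is mostly known from neurons. It stood at 6.84 and 6.92 in WT and at 7.56 and 7.59 in Zip13KO. Both Zip13KO arrays were clearly above WT. The rise of 0.69 log2 units (SE 0.08), or 1.61-fold, was the largest rise of the 58 (limma adjusted p = 4.82e-06). Slc6a8 encodes the creatine carrier, which is no amino acid transporter in the strict sense. It stood at 10.52 and 10.58 in WT and at 10.77 and 10.79 in Zip13KO, a small shift without overlap. The rise of 0.23 (SE 0.06, limma adjusted p = 0.0171) did not pass without WT replicate 1 (0.159) or with the replicate number as a block (0.0738). Slc6a7, a proline carrier of neurons, stood at 6.92 and 6.87 in WT and at 6.68 and 6.63 in Zip13KO. Its fall of 0.24 (SE 0.08) had a limma adjusted p of 0.0461. It was not called without WT replicate 1 (0.202), WT replicate 2 (0.0981), Zip13KO replicate 1 (0.0707) or Zip13KO replicate 2 (0.175), nor with the block (0.0529).

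Among the SLC6 members that did not pass, Slc6a17 came closest. It encodes a vesicular carrier of neutral amino acids in neurons, and stood at 7.99 and 7.62 in WT and at 7.44 and 7.59 in Zip13KO. WT replicate 1 was the high value and the other 3 arrays lay close together. The difference was -0.29 (limma adjusted p = 0.0591). It passed without WT replicate 2 (7.34e-04), without Zip13KO replicate 2 (0.00742), with the block (0.0197), after centring arrays on their median (0.0418) and after a filter on low values (0.0398). Slc6a6, the taurine carrier, was at 10.63 in WT and 10.66 in Zip13KO, with an interval of -0.11 to 0.18 for the difference.

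**Figure D3:**
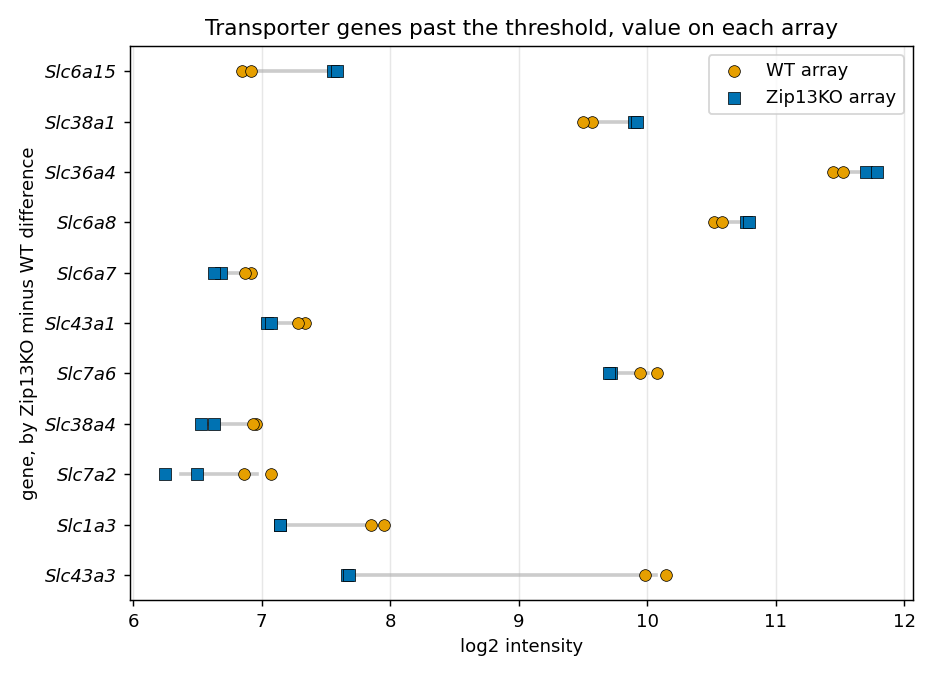
Log2 intensity (x axis) on each of the 4 arrays for the 11 transporter genes past the threshold (y axis), with WT as circles and Zip13KO as squares, and a line between group means. No gene shown has overlapping groups, and the gap is widest for Slc43a3.

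SLC38, the sodium-coupled carriers of glutamine, alanine and related amino acids, had 1 rise and 1 fall among 11 members. That is 18.2% called, beside 17.1% of all genes. Slc38a1 encodes SNAT1, a glutamine importer. It stood at 9.57 and 9.50 in WT and at 9.90 and 9.92 in Zip13KO. The Zip13KO arrays agreed closely and were higher. The rise was 0.37 (SE 0.07), or 1.29-fold (limma adjusted p = 7.27e-04). Slc38a4 encodes SNAT4 and is an imprinted gene in the mouse. It stood at 6.96 and 6.93 in WT and at 6.53 and 6.63 in Zip13KO, the opposite direction. Its fall was 0.36 (SE 0.08, limma adjusted p = 0.00362), and its value on Zip13KO replicate 1 was below the array median. Slc38a2 encodes SNAT2, the carrier that cells raise when amino acids run short, and was at 11.25 in WT and 11.28 in Zip13KO. Its difference of 0.03 had an interval of -0.10 to 0.16. Slc38a1, Slc38a2 and Slc38a4 stand next to each other on chromosome 15, with 0 tested genes between them, so of these neighbours 1 rose, 1 fell and 1 did not pass.

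The lysosomal members of this family were both higher without passing. Slc38a9, the arginine sensor that binds the Rag GTPases, was at 7.43 and 7.28 in WT and at 7.61 and 7.55 in Zip13KO, a difference of 0.23 (limma adjusted p = 0.0750). Slc38a7, which releases glutamine from lysosomes, was at 8.52 and 8.35 in WT and at 8.65 and 8.68 in Zip13KO, also a difference of 0.23 (limma adjusted p = 0.0524). In both genes WT replicate 2 was the lowest array. Both passed after a filter on low values (0.0496 for Slc38a9 and 0.0349 for Slc38a7) and without WT replicate 1 (0.0434 and 0.0257). Slc38a7 passed also after a further quantile normalization (0.0194) and with robust variance (0.0449).

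SLC36, the proton-coupled carriers of small amino acids, had 1 rise among 4 members, or 25% called, beside 17.1% of all genes. Slc36a4 encodes PAT4, a carrier of proline and tryptophan. On its brighter row it stood at 11.44 and 11.52 in WT and at 11.70 and 11.79 in Zip13KO. The rise was 0.26 (SE 0.06, limma adjusted p = 0.00495), and it did not pass without WT replicate 1 (0.0733). The gene has a dimmer row that went the other way, with 8.30 and 8.22 in WT and 7.81 and 7.94 in Zip13KO. That row differed by -0.38 (SE 0.08), and in a fit over all 41345 rows it passed (limma adjusted p = 0.0488) while the brighter row did not (0.0766). The mean of the 2 rows gave -0.0615 (adjusted p = 0.678). The direction of Slc36a4 therefore depends on the row, and which parts of the transcript the rows read is not known here. The other members with 2 rows, Slc1a5 and Slc38a10, were not called on either row of that fit.

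Members with an unadjusted p under 0.05 numbered 15, or 25.9%, the same share as over all genes (25.9%), and 11 of them were called. Slc7a5, Slc7a1, Slc38a2, Slc6a6, Slc1a4 and Slc43a2 did not pass and were named after their values were seen, for their wide use across cell types or their place in a family. Of the 11 called members, 5 overlap long non-coding RNAs in RefSeq that were not tested: Slc38a1, Slc38a4, Slc43a1, Slc6a15 and Slc6a8. Whether signal of those RNAs enters their values was not tested.

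Upstream sequence was at hand from RefSeq for 5 of the 11 called members, and the 4 windows printed here show genes of either direction, with each motif match found among those 5. Each is the 250 bases before a RefSeq start on GRCm38.p6, read 5′ to 3′ on the strand of the gene: chr15:97020360-97020609 (minus strand) for Slc38a4, at the last listed of its 3 starts, chr2:84840073-84840322 (plus) for Slc43a1, chr15:8710808-8711057 (minus) for Slc1a3 and chr9:15709488-15709737 (plus) for Slc36a4. Capitals mark matches on either strand to the core of the metal response element bound by the zinc sensor MTF1 (TGCACNC or TGCGCNC), to the core of the C/EBP-ATF element through which ATF4 acts (TGATGNAA) or to the E-box (CACGTG), where N is any base.
Slc38a4: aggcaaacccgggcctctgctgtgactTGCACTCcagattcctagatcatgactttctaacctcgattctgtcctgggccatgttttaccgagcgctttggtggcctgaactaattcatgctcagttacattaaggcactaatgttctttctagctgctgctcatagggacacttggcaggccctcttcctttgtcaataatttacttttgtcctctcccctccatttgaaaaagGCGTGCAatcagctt
Slc43a1: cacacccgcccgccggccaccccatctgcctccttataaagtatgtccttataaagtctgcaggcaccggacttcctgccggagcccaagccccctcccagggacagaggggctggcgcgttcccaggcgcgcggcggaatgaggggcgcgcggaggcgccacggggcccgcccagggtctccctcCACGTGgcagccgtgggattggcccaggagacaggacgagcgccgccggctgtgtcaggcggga
Slc1a3: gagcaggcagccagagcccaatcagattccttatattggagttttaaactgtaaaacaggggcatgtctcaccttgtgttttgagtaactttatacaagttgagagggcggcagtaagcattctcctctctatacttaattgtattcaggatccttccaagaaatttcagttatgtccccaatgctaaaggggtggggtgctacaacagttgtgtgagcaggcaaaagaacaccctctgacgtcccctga
Slc36a4: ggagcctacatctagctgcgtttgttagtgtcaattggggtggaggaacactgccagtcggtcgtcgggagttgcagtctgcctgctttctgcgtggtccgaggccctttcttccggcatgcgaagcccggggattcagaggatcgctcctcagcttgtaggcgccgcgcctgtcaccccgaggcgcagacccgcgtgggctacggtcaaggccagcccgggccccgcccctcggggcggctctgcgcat

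Slc38a4, which fell, held 2 matches to the metal response core, starting 223 and 15 bases before its start, and Slc43a1, which also fell, held 1 E-box 64 bases before its own. No match overlapped another. The metal response core was found before at least 1 start of 10 of the 41 members with a window, and of 23.8% of all 27025 genes with a window (21.4% of all 32851 windows). The C/EBP-ATF core was found for 2 of 41 members and for none of the 5 called ones, beside 3.91% of all genes with a window (3.45% of windows). The E-box was found for 9 of 41 members and for 6.86% of all genes with a window (6.02% of windows). A match is a run of letters and does not show that a factor binds there. The window of Slc36a4 was 66.0% G and C and that of Slc1a3 44.8%, beside a median of 52.4% over all windows.

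Other genes of amino acid handling were counted from lists chosen for their function, beside the 17.1% called over all genes. Most listed genes were bright, with 2 or more of their 4 values past the array median. The branched-chain list had the fewest by share, 14 of 18. Of all genes that bright 26.1% were called, a closer match for these lists. Shares called were 21.7% (further carriers), 24.2% (lysosomal sensing), 33.3% (response), 50% (serine), 37.5% (glutamine) and 27.8% (branched-chain). Their distance from 26.1% was not tested. Of 23 further carriers, 4 rose and 1 fell, with a median of -0.00200. Slc17a6, which loads glutamate into synaptic vesicles, went from 6.54 and 6.61 in WT to 7.43 and 7.32 in Zip13KO, a rise of 0.80. Its value on WT replicate 1 was below the array median. Mfsd12, which brings cysteine into lysosomes, rose by 0.43, and Sfxn2, a mitochondrial carrier of the sideroflexin family, rose by 0.38. Slc7a11 was at 6.93 and 6.95 in WT and at 6.84 and 6.87 in Zip13KO, and did not pass (difference -0.09, limma adjusted p = 0.579).

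Genes that sense amino acids at the lysosome had 6 rises and 2 falls among 33. The GTPase gene Rragb went from a mean of 5.94 to values of 7.05 and 6.89, a rise of 1.03 (limma adjusted p = 7.53e-08). Only its Zip13KO values were above the array median. Its close relative Rraga fell by 0.42. Rragb and Rraga are paralogs, and whether their probes share signal was not tested. Lamtor3, part of the scaffold that holds Rag GTPases on the lysosome, fell by 0.28. It did not pass without WT replicate 2 (0.0716). The median difference of the list was 0.05.

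Listed genes of the amino acid response, which are not all regulators, did not move as 1 group, with 2 rises and 2 falls among 12. Chac1, which breaks down glutathione, rose by 1.20 and the pseudokinase gene Trib3 rose by 0.38, whereas Ddit4, an inhibitor of mTORC1, fell by 0.61. Atf4, the central factor of the response, was at 10.65 and 10.64 in WT and at 10.70 and 10.67 in Zip13KO and did not pass (limma adjusted p = 0.795). Trib3 did not pass without WT replicate 2 (0.126).

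Among 8 genes of serine, glycine and proline synthesis 4 rose. No member of the list was lower in limma, also at an unadjusted p under 0.05. Psat1, the aminotransferase of serine synthesis, rose by 0.24, and Shmt2 and Shmt1, which turn serine into glycine, rose by 0.21 and 0.27. The median of the list was 0.19. These calls were near the threshold. Psat1 and Shmt2 did not pass without WT replicate 2 (0.0862 and 0.172), and Shmt2 did not pass with the block (0.0588) or without a trend in the variance (0.0779). Shmt1 did not pass without WT replicate 1 (0.0854), WT replicate 2 (0.0555) or Zip13KO replicate 2 (0.157).

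Of 8 enzymes of glutamine, glutamate and aspartate, 3 fell in limma without any rise. At an unadjusted p under 0.05 the same 3 were lower and 1, Gpt2, was higher (0.19). Oat, which links ornithine to glutamate, went from 10.21 and 10.18 to 9.57 and 9.78, a fall of 0.52. Glul, glutamine synthetase, went from 9.43 and 9.44 to 8.83 and 9.04, a fall of 0.50, and by -0.22 over the mean of its rows (adjusted p = 0.0569). Got2, the mitochondrial aspartate aminotransferase, fell by 0.19 and did not pass without WT replicate 1 (0.161), WT replicate 2 (0.155) or Zip13KO replicate 1 (0.316), nor with the block (0.102), without a trend in the variance (0.136) or as the mean of its rows (0.137). Of 18 enzymes that use branched-chain amino acids, arginine, creatine or taurine, 3 rose and 2 fell. Ckb, a creatine kinase, rose by 0.36, Asl, of arginine synthesis, rose by 0.31, and Bcat1, the cytosolic branched-chain aminotransferase, fell by 0.28. Asl did not pass without WT replicate 2 (0.0809), and Bcat1 did not without WT replicate 1 (0.0948). In the fit over all rows, Lamtor3, Trib3, Psat1, Shmt2, Shmt1, Got2, Asl and Bcat1 did not pass, with limma adjusted p-values from 0.0611 to 0.229.

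**Figure D4:**
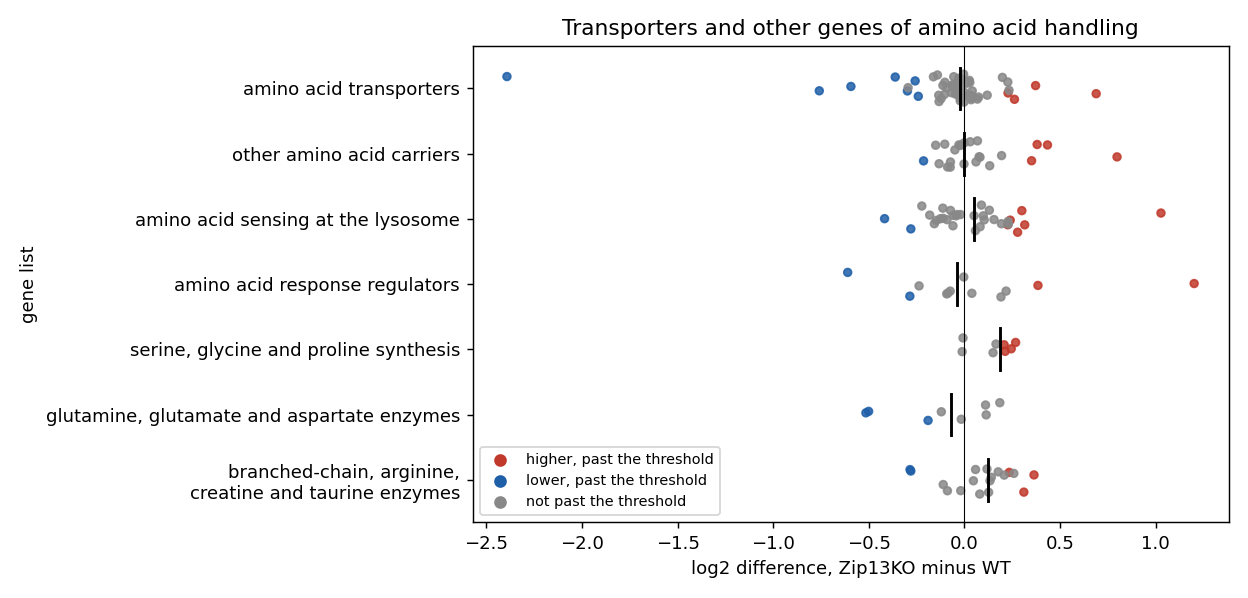
Log2 difference (x axis) of each gene in the transporter families and in 6 lists of amino acid handling genes (y axis), with genes past the threshold in colour and the median of each list as a black bar. Medians lie between -0.07 and 0.19, and single genes reach from -2.39 (Slc43a3) to 1.20 (Chac1).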

How the data were processed

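Total RNA of 2 WT and 2 Zip13KO fibroblast samples was hybridised to 4 single-colour arrays, per the labels. The authors deposited 1 table of linear intensity values. The submitters' processing notes name Affymetrix Expression Console and RMA (background correction, normalization between arrays and summary of probes). RMA makes the distributions of the arrays alike, so a shift common to most genes is lost, and it compresses differences of dim genes. The number of arrays limits the precision.

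Log2 was taken with no pseudocount. Of 41345 rows, 23521 had 1 symbol in the platform annotation, 1814 had several and 16010 had none there, and the brightest row per gene was kept. The 58 members all matched the RefSeq gene table of GRCm38.p6, used for gene order. The test was that of limma 3.58.1, run in R 4.3.3 (lmFit, eBayes with trend, two-sided, 2 residual and 15.1 prior degrees of freedom), with Benjamini-Hochberg adjustment. With 2 arrays a group, the smallest two-sided p of an exact permutation test is 0.333. Plots were drawn in matplotlib 3.10.9. The fit was tested on simulated data.

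The members and lists were chosen with earlier results of these data known. Named are all members called, those with an unadjusted p under 0.05, both SLC3 genes and up to 3 called genes per list, by smallest p. Alternatives were a further quantile normalization, centring, a filter on low values, other variance models, the mean of rows, all rows, the replicate block and each array left out.

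Same-numbered arrays of the 2 groups deviated from their group means with a correlation of -0.158 over genes, so the numbers were not taken to pair the samples.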

Additional observations from a re-analysis of the deposited data

How the results depend on the processing

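Of the 11 transporter genes called, Slc43a3, Slc1a3, Slc6a15, Slc7a2 and Slc38a1 kept their direction and their call in each of 13 alternatives. The test as reported gave 4 higher and 7 lower members. Fitting and adjusting over all rows of the table gave 2 higher and 3 lower (those 5 genes), and 1806 calls over all genes in place of 3786. The cause was not tested. With 1 array left out, members higher numbered 4 to 5 and members lower 4 to 6, and WT replicate 1 mattered most, as 5 of the 11 calls were lost without it. The replicate block gave 3 higher and 7 lower, without Slc6a8 and Slc6a7 and with Slc6a17. Crossing the replicate numbers, an alternative chosen after seeing the data because same-numbered arrays correlated below zero, gave 7 higher and 8 lower. The mean of its rows reversed Slc36a4, to -0.0615. Genes named only as markers or neighbours, other than Tnks1bp1, were not followed through the alternatives. Deposited intensities give no background or detection values, so low signal could not be told from background.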
